A study of Mus musculus with 22 samples.

Results

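Mertk, Axl, Tyro3, Megf10, Gas6, Pros1, Mfge8 and Gulp1, receptors, bridging ligands and an adaptor for the uptake of phosphatidylserine-bearing debris, were followed in the optic nerve after microbead injection. Their mRNA was measured and uptake was not. The genes were chosen by gene symbol, and all 8 of the 8 listed symbols were found once each among the 29367 genes of the count table. The table holds RNA-seq counts of ribosome-bound mRNA from 22 libraries, with 7 libraries of the optic nerve head (ONH) and 7 of the optic nerve proper (ONP) at 30 days and 4 of each region at 7 days. A library was made from a pool of 4 animals (2 males, 2 females), and its total lay between 16292489 and 33307092 counts.

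All 4 groups came from mice aged 3 to 4 months that carried the ribotag allele of Rpl22 on both chromosomes and a constitutive GFAP-Cre transgene (B6J.129(Cg)-Rpl22tm1.1Psam/SjJ crossed to a GFAP-Cre line). The labels give their genotype as WT. In these mice Cre switches Rpl22 to a hemagglutinin (HA) tagged form wherever the mouse GFAP promoter has been active, and ribosomes with their mRNA were captured by an anti-HA antibody. The groups therefore shared the tag, the transgene and the microbead injection that raises intraocular pressure (IOP), and differed in region and day. Libraries of uninjured mice were not analysed here, so a difference between days is one between 2 times after injection. Per the study's methods both regions were dissected from the same mice, with no day singled out. At 30 days the replicate numbers were taken to mark these pairs. The libraries of 7 days could be assigned to their region and day only, and they are called here by the numbers of their columns in the table. Columns 1, 5 and 6 occur in both regions at 7 days, but the numbers do not match the labels and were not used as pairs. The main tests between regions, at 30 days as well as at 7 days, and of the interaction thus treat libraries that probably share mice as separate samples. The 30 day pairs entered only as a block in an alternative fit.

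Phagocytes recognize dying cells and shed membrane by phosphatidylserine exposed on the outer leaflet. The TAM receptor tyrosine kinases Tyro3, Axl and Mertk do not bind this lipid themselves but bind vitamin K-dependent proteins whose Gla domains attach to it. Gas6 is a ligand of each of them, and Pros1 is a ligand of Tyro3 and Mertk. Megf10, a homologue of the nematode engulfment receptor CED-1, works with the cytoplasmic adaptor Gulp1, and Mfge8 bridges phosphatidylserine to integrins of the alpha v family. Astrocytes of the optic nerve head are known to internalize axonal material under normal conditions, and Mertk and Megf10 are the receptors best known for synapse removal by astrocytes.

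Levels are given as CPM, a gene's count divided by the library total, which is scaled by TMM, a factor per library that corrects for differences in composition. Levels of different genes are compared only per kb of exon, using the union of a gene's exons. Groups were compared across all genes with the quasi-likelihood test of edgeR, and a gene was called at a Benjamini-Hochberg adjusted p under 0.05. Intervals of a log2 fold change (log2FC) are 95% intervals from the same test.

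The labelled cell type was checked first. All 10 astrocyte markers (among them Gfap, Aqp4, Sox9 and Slc1a3) were above 3 counts in every library, with a summed level between 14571 and 33611 CPM. All 8 oligodendrocyte markers (among them Mbp, Mog, Mag and Mobp) were also above 3 counts in every library. Their sum ranged from 13330 to 40787 CPM in the ONH at 30 days, 18394 to 35406 CPM in the ONH at 7 days, 25313 to 83076 CPM in the ONP at 30 days and 80885 to 105916 CPM in the ONP at 7 days. Of 11 microglia or macrophage markers, 10 or 11 were above 3 counts in every library, and their sum ranged from 158 to 3513 CPM. In the ONP at 7 days the oligodendrocyte sum thus exceeded the astrocyte sum in 4 of 4 libraries. Its median was also above the astrocyte median in the ONP at 30 days (52750 against 28659 CPM) and in the ONH at 7 days (22581 against 18245 CPM). Only in the ONH at 30 days was it below (18415 against 20476 CPM). Photoreceptor markers reached 5219 CPM in the 7 day ONH column 6 and surface epithelium markers 118 CPM in the 7 day ONH column 1, so results of the 7 day ONH are also given without these libraries where that changed a call.

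The promoters of Pros1 and Tyro3 are shown because these 2 genes differed between the regions at both times, in opposite directions. The windows run from 250 bases before to 50 bases after the RefSeq transcription start on GRCm38.p6, 5′ to 3′ on the plus strand, at chr16:62854057-62854356 for Pros1 and chr2:119799264-119799563 for Tyro3. Capitals mark every match, on either strand, to the letters of a GC box (GGGCGG), a STAT site (TTCNNNGAA) or a SOX site (ACAAAG), and runs of capitals longer than a motif are overlapping or adjoining matches.
Pros1 promoter: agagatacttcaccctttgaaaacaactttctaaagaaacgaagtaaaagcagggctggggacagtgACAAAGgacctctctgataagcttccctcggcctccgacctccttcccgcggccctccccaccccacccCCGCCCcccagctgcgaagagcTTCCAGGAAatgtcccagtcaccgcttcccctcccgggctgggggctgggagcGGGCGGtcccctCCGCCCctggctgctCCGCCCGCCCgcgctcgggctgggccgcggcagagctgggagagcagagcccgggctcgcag
Tyro3 promoter: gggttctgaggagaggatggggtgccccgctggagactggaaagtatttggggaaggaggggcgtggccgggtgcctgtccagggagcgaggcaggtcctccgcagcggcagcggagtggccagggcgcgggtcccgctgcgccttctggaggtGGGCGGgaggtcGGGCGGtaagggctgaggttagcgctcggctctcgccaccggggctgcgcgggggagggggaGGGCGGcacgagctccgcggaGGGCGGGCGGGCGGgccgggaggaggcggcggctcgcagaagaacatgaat
Both windows were rich in G and C (66.7% for Pros1 and 73.3% for Tyro3). The Pros1 window held 5 GC boxes, 1 STAT site and 1 SOX site. The Tyro3 window held 6 GC boxes and neither of the other motifs. Among 32851 windows of the same length, 35.7% held a GC box, 8.3% a STAT site and 18.7% a SOX site. A TATA box (TATAAA, in 13.6% of windows), a CCAAT box (CCAAT, 37.4%) and an AP-1 site (TGANTCA, 7.81%) were also searched and matched in neither. Of the other members with a window, Mertk, Gas6 and Mfge8 had 4 GC boxes each, Axl 2 and Gulp1 1, with no match to the other 5 motifs. These matches describe letters only, and no binding was measured.

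On GRCm38, Mertk lies at chr2:128698956-128802894 (plus strand), Axl at chr7:25757273-25788705 (minus), Tyro3 at chr2:119797733-119818104 (plus), Megf10 at chr18:57133090-57297467 (plus), Gas6 at chr8:13465374-13494490 (minus), Pros1 at chr16:62854307-62929346 (plus), Mfge8 at chr7:79133768-79149060 (minus) and Gulp1 at chr1:44551511-44796838 (plus). Counts were summed over all transcripts of a gene. Exons of Gas6 overlap those of Tmem255b on the opposite strand by 34 bases, and the library kit does not mark strand. No other member shared exon bases with another gene.

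**Figure D1:**
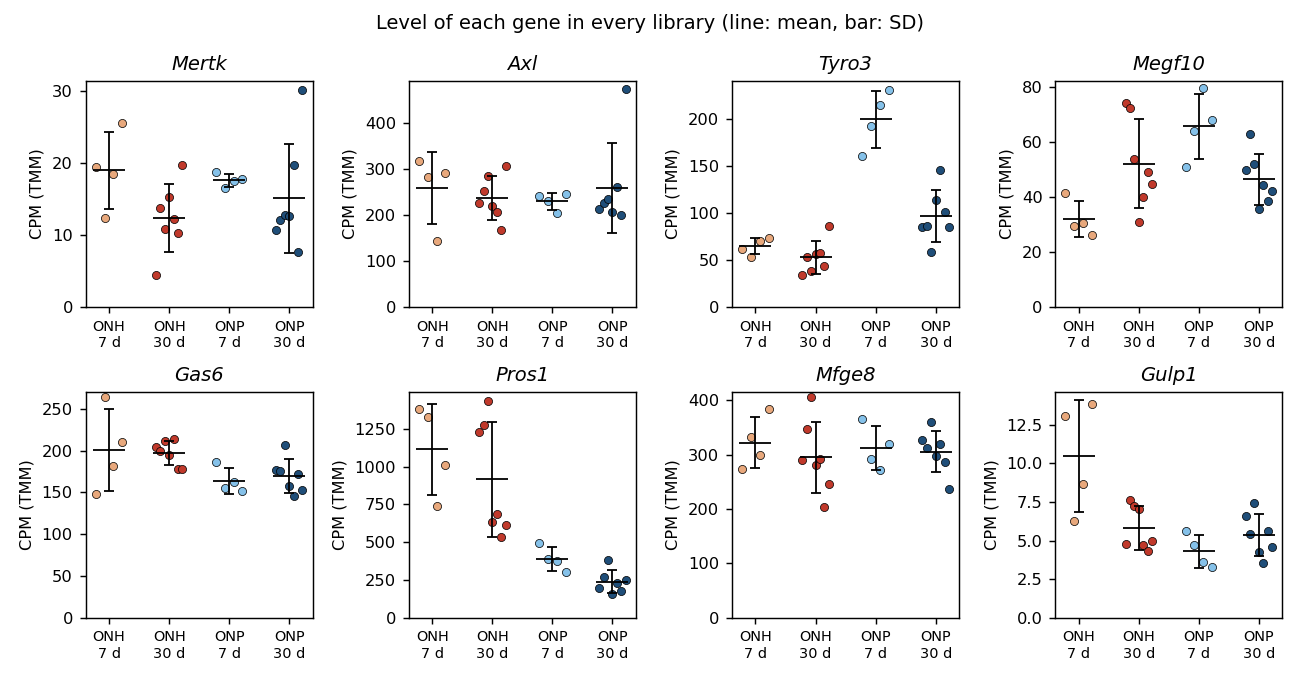
Level of each gene in CPM (vertical axes, TMM scaled, starting at 0) in the 22 libraries by group, with a point for each library, a line for the group mean and a bar for the SD. Tyro3 and Megf10 separate the 7 day ONP from the 7 day ONH without overlap, Pros1 separates the regions at both times, and Axl, Gas6 and Mfge8 overlap between all groups.

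The 8 genes spanned a wide range of levels. Per kb of exon, Pros1 was the highest in the ONH, with means of 224 CPM per kb at 30 days and 272 CPM per kb at 7 days. Gas6, Mfge8 and Axl followed with group means between 45.6 and 78.9 CPM per kb in all 4 groups. Tyro3 lay between 8.53 and 32.2 CPM per kb, Megf10 between 4.15 and 8.52 CPM per kb, Mertk between 2.85 and 4.38 CPM per kb and Gulp1 between 1.15 and 2.79 CPM per kb. All 8 genes were tested in every comparison, and the lowest single level, 3.30 CPM for Gulp1 in the 7 day ONP, was above the floor of 3 counts (0.0901 to 0.184 CPM).

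Among the TAM receptors, Tyro3 was the one called in any comparison, lower in the ONH than in the ONP at both times and lower at 30 days than at 7 days in the ONP. In the ONP at 7 days its level was 160, 193, 215 and 231 CPM in columns 1, 2, 5 and 6. In the ONP at 30 days the lowest, median and highest levels were 58.9, 86.7 and 146 CPM. All 7 of the later libraries were below all 4 of the earlier ones, and Tyro3 fell 2.10-fold in the ONP (log2FC −1.07, SE 0.20, adjusted p = 0.00447). In this comparison 17.0% of 15491 genes were called, 7.82% as higher and 9.21% as lower, and 3 of the 8 members were called, all 3 as lower. Of all genes, 5.79% were lower at 30 days without overlap between the groups, and Tyro3 was the 1 member among them.

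In the ONH the level of Tyro3 was 61.9, 53.8, 69.8 and 73.1 CPM in the 7 day columns 1, 3, 5 and 6, and 34.3, 53.3 and 86.2 CPM (lowest, median, highest) at 30 days. These groups overlapped and the log2FC of −0.31 was not called (SE 0.23, interval −0.80 to 0.17, adjusted p = 0.543). The regions differed at both times. At 7 days all ONH libraries were below all ONP libraries and Tyro3 was 3.05-fold lower in the ONH (log2FC −1.61, SE 0.17, adjusted p = 0.000302). At 30 days it was 1.83-fold lower in the ONH (log2FC −0.87, SE 0.21, adjusted p = 0.00396), with 6 of 7 ONH libraries below all ONP libraries. The ONH was then lower in 6 of 7 pairs of the same replicate number. The background was 13.2% of 14752 genes called at 7 days (6.34% higher and 6.81% lower in the ONH) and 41.8% of 15133 genes at 30 days (21.8% higher and 20.0% lower). Of the members, 4 were called at 7 days and 2 at 30 days.

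The levels of Tyro3 ran parallel to those of oligodendrocyte markers. Over the 22 libraries, which share a preparation and a scaling, the log2 level of Tyro3 had a Pearson r of 0.95 with the log2 summed level of the 8 oligodendrocyte markers, and r was 0.89 with each group centred on its mean. The 3 genes most like Tyro3 among 16748 genes were Mag (r = 0.97), a myelin glycoprotein that is itself on that marker list, Phldb1 (r = 0.96) and Gpr37 (r = 0.96). Per 1000 CPM of oligodendrocyte markers, Tyro3 stood at 2.27 ± 0.482 CPM in the ONH at 30 days (SD, n = 7), 1.93 ± 0.310 CPM in the ONP at 30 days (n = 7), 2.70 ± 0.434 CPM in the ONH at 7 days (n = 4) and 2.18 ± 0.165 CPM in the ONP at 7 days (n = 4), with no test made. The 30 day ONP replicate with the highest oligodendrocyte sum (83076 CPM, replicate 5) also had the highest Tyro3 of its group, 146 CPM. The part of oligodendrocyte mRNA in the Tyro3 differences was not tested. In libraries from pooled tissue, fewer cells of a type and less mRNA per cell cannot be told apart.

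**Figure D2:**
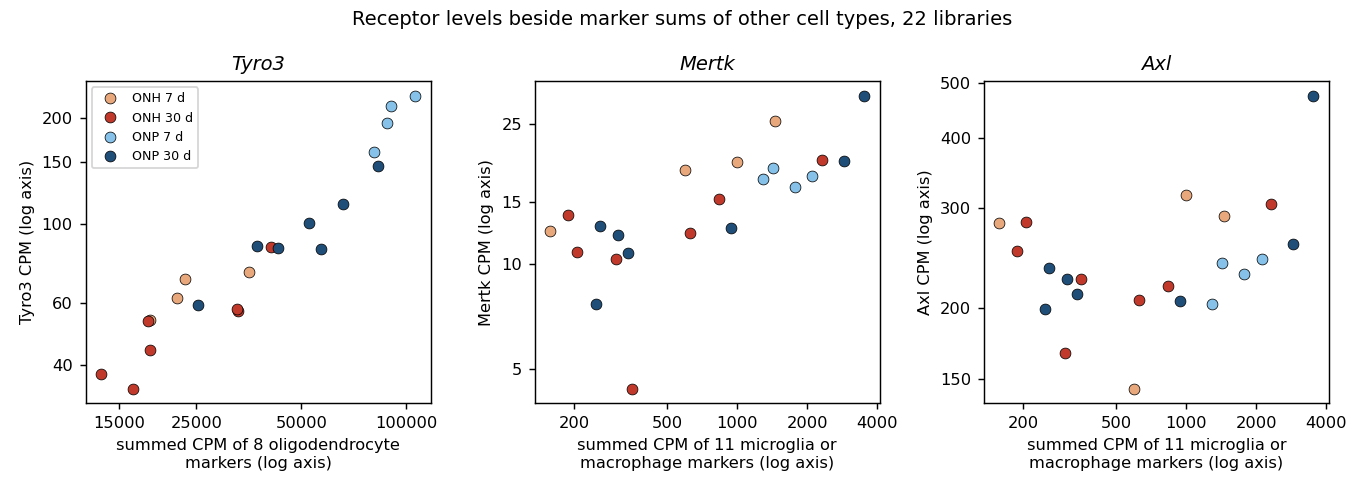
Level of Tyro3, Mertk and Axl in CPM (vertical log axes) against the summed CPM of markers of another cell type (horizontal log axes), with a point for each of the 22 libraries coloured by group. Tyro3 is higher where the oligodendrocyte sum is higher, across and within groups (r = 0.95 and 0.89), and the 30 day ONP library with the highest microglia or macrophage sum, 3513 CPM, has the highest Mertk and Axl.

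Mertk, the TAM receptor for which astrocytic engulfment is best described, had the lowest level of the 3. In the ONH it was 19.5, 12.4, 18.5 and 25.5 CPM in the 7 day columns 1, 3, 5 and 6 and 4.41, 12.2 and 19.8 CPM (lowest, median, highest) at 30 days. In the ONP it was 18.7, 16.6, 17.4 and 17.7 CPM in the 7 day columns 1, 2, 5 and 6 and 7.66, 12.7 and 30.1 CPM at 30 days. All groups overlapped, and no comparison of Mertk was called. The 30 to 7 day log2FC was −0.64 in the ONH (SE 0.33, interval −1.35 to 0.06, adjusted p = 0.395) and −0.25 in the ONP (SE 0.30, interval −0.90 to 0.39, adjusted p = 0.595). The coefficient of variation over libraries was 38.4% in the ONH and 49.9% in the ONP at 30 days, and 28.3% in the ONH and 5.03% in the ONP at 7 days.

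Mertk is also a macrophage gene, and its log2 level had an r of 0.71 with the summed microglia or macrophage markers over the 22 libraries (0.73 within groups). That sum ranged from 187 to 2312 CPM in the ONH at 30 days, 158 to 1457 CPM in the ONH at 7 days, 248 to 3513 CPM in the ONP at 30 days and 1287 to 2107 CPM in the ONP at 7 days. The highest Mertk level, 30.1 CPM in ONP replicate 7 at 30 days, came from the library with the highest sum, and the next highest sum of that group, 2888 CPM in replicate 5, went with its second highest Mertk, 19.7 CPM. The part of these cells in the Mertk levels was not tested. Most like Mertk in pattern were Cyp4f18 (r = 0.91), Hlx (r = 0.85) and Cyb5r1 (r = 0.84).

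Axl, the most abundant TAM receptor mRNA, differed little between groups. Its mean was 237 ± 47.4 CPM in the ONH at 30 days (SD, n = 7), 259 ± 77.6 CPM in the ONH at 7 days (n = 4), 259 ± 97.1 CPM in the ONP at 30 days (n = 7) and 230 ± 18.4 CPM in the ONP at 7 days (n = 4). None of its comparisons was called, and the intervals of log2FC ran from −0.62 to 0.32 for the ONH over time, −0.32 to 0.60 for the ONP over time, −0.53 to 0.29 between regions at 30 days and −0.31 to 0.70 between regions at 7 days. In ONP replicate 7 at 30 days, the library with the highest microglia or macrophage sum, Axl reached 474 CPM against 260 CPM in the next library. The log2FC of Axl in the ONP was 0.14 with this library and −0.07 without it, not called in either case. The r of the log2 level of Axl with the microglia or macrophage sum was 0.38 over the 22 libraries and 0.45 within groups, lower than that of Mertk. Nearest to Axl in pattern were Ucp2 (r = 0.87), Pld3 (r = 0.87) and Ctsb (r = 0.85), the last of these a lysosomal protease.

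The composition of the TAM receptor mRNA therefore differed between groups mainly through Tyro3. Per kb of exon, Axl made up 80.6 ± 4.60% of the 3 receptors in the ONH at 30 days, 76.4 ± 8.15% in the ONH at 7 days, 72.2 ± 6.45% in the ONP at 30 days and 55.8 ± 4.32% in the ONP at 7 days (SD over libraries). Tyro3 made up 14.6 ± 3.33%, 16.7 ± 5.99%, 23.1 ± 6.86% and 39.2 ± 4.58% in the same order. Mertk stayed between 4.75% and 6.87% on average. The lowest Tyro3 share of the 7 day ONP, 33.2%, was above the highest share of each other group (29.5% in the ONP at 30 days). These shares are ratios within a library and do not depend on its scaling.

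**Figure D3:**
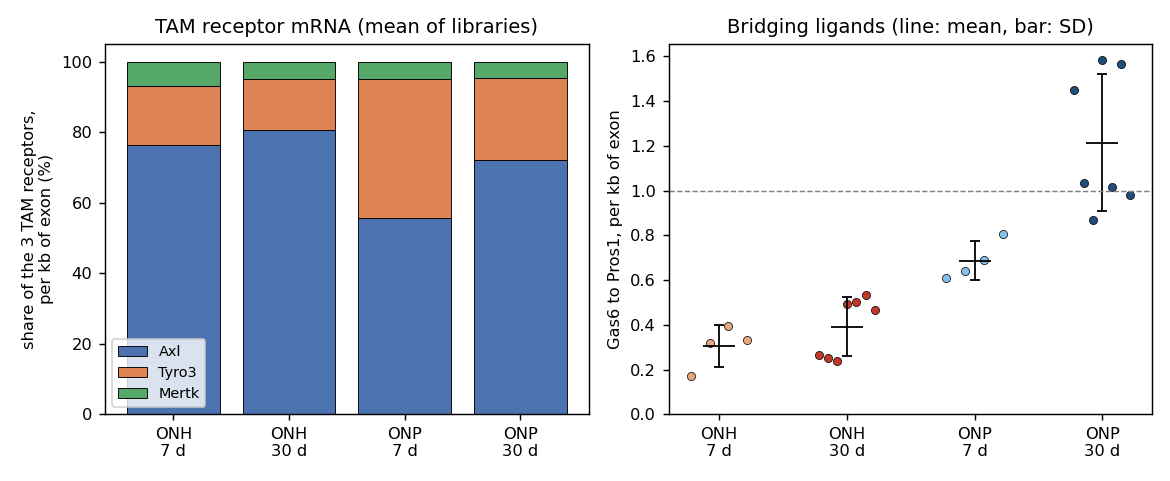
Left, mean share of Axl, Tyro3 and Mertk in their summed mRNA per kb of exon (vertical axis in percent, starting at 0) for the 4 groups. Right, ratio of Gas6 to Pros1 per kb of exon in each library, with a line for the mean, a bar for the SD and a dashed line at equal levels: all ONH libraries lie at 0.533 or below, all 7 day ONP libraries between 0.608 and 0.806, and the 30 day ONP libraries between 0.868 and 1.58.

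The estimates for Megf10 over time had opposite signs in the 2 regions, and the one in the ONP was called. In the ONP it was 51.0, 64.2, 79.5 and 68.2 CPM in the 7 day columns 1, 2, 5 and 6 and 35.8, 44.4 and 63.0 CPM (lowest, median, highest) at 30 days. The groups overlapped, with 5 of 7 later libraries below all earlier ones, and Megf10 fell 1.44-fold (log2FC −0.53, SE 0.16, adjusted p = 0.0372). This call did not hold when single libraries were left out. It was lost without replicate 1, 4, 5, 6 or 7 of the 30 day ONP and without column 2, 5 or 6 of the 7 day ONP, in 8 of 11 refits, with an adjusted p of up to 0.112 and a log2FC between −0.61 and −0.42. It was also lost in 5 of 10 other alternatives, over which the adjusted p ranged from 0.0279 to 0.142.

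In the ONH the level of Megf10 was 41.7, 29.4, 30.6 and 26.3 CPM in the 7 day columns 1, 3, 5 and 6 and 30.8, 49.0 and 74.3 CPM at 30 days. Of the later libraries, 5 of 7 were above all earlier ones, and the log2FC was 0.68 (SE 0.24, interval 0.16 to 1.20, adjusted p = 0.259), which was not called. No gene at all was called in this comparison (0 of 15668, or 0%), while 2179 genes, or 13.9%, had an unadjusted p under 0.05, among them 2 members, Megf10 and Gulp1. DESeq2 called 446 genes and limma-voom with quality weights 0 in the same comparison, with none of the 8 members among them.

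The difference between these changes was tested as an interaction over all 4 groups, in which 91 of 16748 genes (0.543%) and 0 of the 8 members were called. For Megf10 the change in the ONP minus that in the ONH was −1.20 on the log2 scale (SE 0.30, interval −1.82 to −0.59, unadjusted p = 0.000497, adjusted p = 0.0620), which ranked 133 among the genes tested. With the 30 day pairs of the same replicate number as a block, edgeR called it (log2FC −1.17, adjusted p = 0.0230), as did DESeq2 without a block (log2FC −1.16, adjusted p = 0.0159). It was not called in the other 9 of 11 alternatives, and over the 11 the adjusted p ranged from 0.0159 to 0.177, the highest with limma-voom. Of 22 refits that left out 1 library, 1 called it, without ONH replicate 4 at 30 days (adjusted p = 0.0386). That replicate had the highest photoreceptor marker sum of its group, 1902 CPM against a group median of 185 CPM. In all, 2103 genes, or 12.6%, had an unadjusted p under 0.05 for the interaction, among them Megf10, Gulp1 and Tyro3.

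Between the regions, Megf10 was 2.03-fold lower in the ONH at 7 days (log2FC −1.02, SE 0.21, adjusted p = 0.0101), and no ONH library reached the lowest ONP library. Of all genes, 11.8% were lower in the ONH at 7 days without overlap, and 2 members were, Tyro3 and Megf10. At 30 days the mean was 52.2 ± 16.2 CPM in the ONH and 46.6 ± 9.28 CPM in the ONP (SD, n = 7 each), with a log2FC of 0.16 that was not called (interval −0.24 to 0.56, adjusted p = 0.530). The oligodendrocyte sum did not overlap between the regions at 7 days either, while within groups the r of Megf10 with it was −0.59. Its part in the Megf10 difference was not tested. Megf10 was most like Impad1 (r = 0.84), Lrig2 (r = 0.84) and Acsl4 (r = 0.78).

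Gulp1, the adaptor of Megf10, had the lowest level of the 8 genes and a regional difference opposite to that of Megf10. At 7 days it was 13.1, 6.25, 8.67 and 13.9 CPM in ONH columns 1, 3, 5 and 6 and 5.64, 4.71, 3.61 and 3.30 CPM in ONP columns 1, 2, 5 and 6. All ONH libraries were above all ONP libraries, and Gulp1 was 2.46-fold higher in the ONH (log2FC 1.30, SE 0.37, adjusted p = 0.0413). This call was lost in 6 of 8 refits that left out 1 library, namely ONH column 1 or 6 or any of the 4 ONP columns (adjusted p up to 0.125). Without both ONH columns 1 and 6, the libraries with the most surface epithelium and photoreceptor mRNA, the log2FC was 0.79 (adjusted p = 0.212), and over 10 alternatives the adjusted p ranged from 0.00426 to 0.212.

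At 30 days Gulp1 was at 4.35, 4.97 and 7.64 CPM (lowest, median, highest) in the ONH and 3.56, 5.45 and 7.43 CPM in the ONP, overlapping and not called (log2FC 0.12, interval −0.34 to 0.58, adjusted p = 0.694). Its change over time had a log2FC of −0.87 in the ONH (SE 0.29, adjusted p = 0.242) and 0.28 in the ONP (SE 0.25, adjusted p = 0.468). The interaction was 1.16 (SE 0.38, adjusted p = 0.173), opposite in sign to that of Megf10 and not called. Gulp1 had an r of 0.70 with the 6 mural cell markers over all libraries and 0.52 within groups. Their sum ranged from 89.3 to 396 CPM in the ONH at 7 days, with 4 to 6 of the 6 markers above 3 counts, and from 47.1 to 175 CPM in both groups at 30 days. The part of mural cells in the Gulp1 levels was not tested. The genes most like Gulp1 were Tmem72 (r = 0.85), Ano6 (r = 0.84), a phospholipid scramblase that exposes phosphatidylserine, and Plk5 (r = 0.82).

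**Figure D4:**
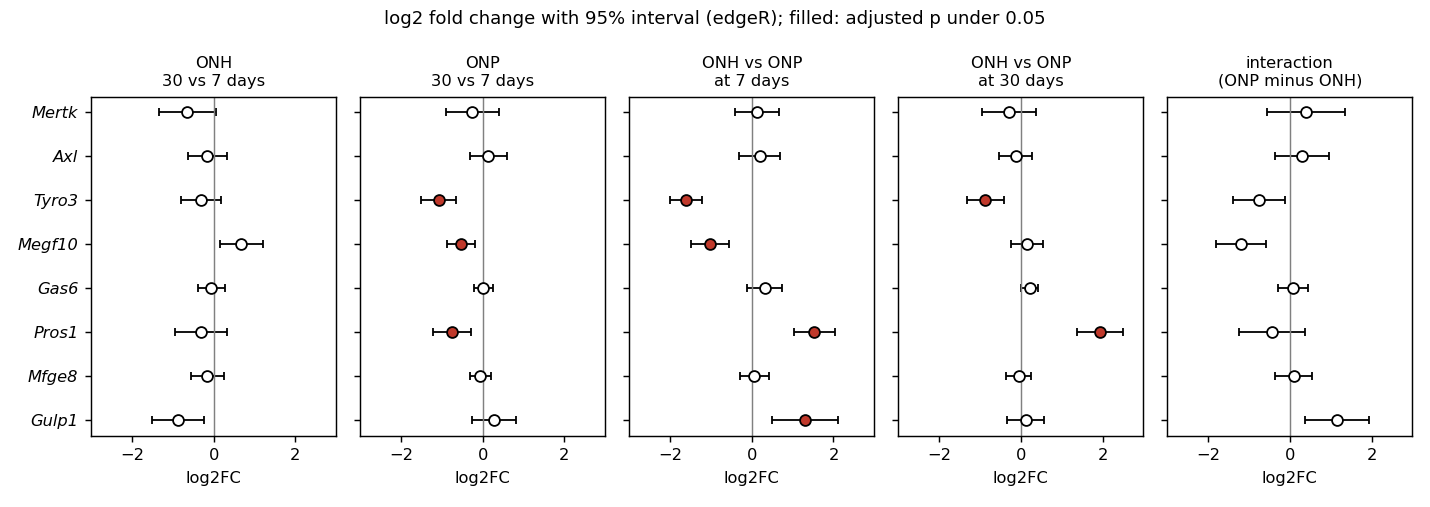
Log2 fold change (horizontal axes) of the 8 genes in the 5 comparisons, with a point for the edgeR estimate, a bar for its 95% interval and filled points for an adjusted p under 0.05. Tyro3 and Pros1 are filled in the ONP over time and in both regional comparisons, in opposite directions between regions, and no point is filled for the ONH over time or the interaction.

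Of the 2 TAM ligands, Pros1 carried the regional difference. At 7 days it stood at 1381, 1328, 737 and 1010 CPM in ONH columns 1, 3, 5 and 6 and at 492, 388, 378 and 302 CPM in ONP columns 1, 2, 5 and 6. At 30 days the lowest, median and highest levels were 537, 684 and 1432 CPM in the ONH and 160, 230 and 382 CPM in the ONP. The regions did not overlap at either time. Higher in the ONH without overlap were 9.26% of all genes at 30 days and 9.90% at 7 days, and of the members Pros1 at 30 days and Pros1 and Gulp1 at 7 days. Pros1 was 2.90-fold higher in the ONH at 7 days (log2FC 1.54, SE 0.23, adjusted p = 0.00191) and 3.85-fold higher at 30 days (log2FC 1.94, SE 0.26, adjusted p = 4.33e-05). It was higher in the ONH in 7 of 7 pairs of the same replicate number at 30 days, by 1.30 to 2.66 on the log2 scale.

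Within the ONH at 30 days the Pros1 levels fell into separate ranges. Replicates 1, 2 and 3 were at 1231, 1274 and 1432 CPM, and replicates 4 to 7 were between 537 and 684 CPM. The oligodendrocyte sum was 13330 to 18132 CPM in the first 3 and 18415 to 40787 CPM in the other 4. Both ranges were above all ONP libraries.

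Over time, Pros1 fell 1.68-fold in the ONP (log2FC −0.74, SE 0.21, adjusted p = 0.0314), with 6 of 7 later libraries below all earlier ones. The call was lost without replicate 1 or 6 of the 30 day ONP or column 1, 2 or 5 of the 7 day ONP (adjusted p up to 0.113, log2FC −0.90 to −0.59). It was also lost in 2 of 10 other alternatives, with scaling by library size only (adjusted p = 0.0592) and with all 4 groups in a single fit (adjusted p = 0.110). Markers of other cell types were lower in the same comparison. Of the oligodendrocyte markers 6 of 8 fell, of the endothelial markers 4 of 7 (median log2FC −1.89) and of the mural cell markers 2 of 5 tested. The endothelial sum was 103 to 138 CPM in the ONP at 7 days and at most 90.3 CPM at 30 days, and the mural sum was 79.3 to 107 CPM and 47.1 to 74.8 CPM, neither with overlap. Their part in the changes of Pros1, Megf10 and Tyro3 in the ONP was not tested. In the ONH the log2FC of −0.31 for Pros1 was not called (SE 0.30, interval −0.95 to 0.33, adjusted p = 0.667), and the interaction was −0.43 (interval −1.24 to 0.37, adjusted p = 0.715).

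Markers of other cell types moved with the regional difference of Pros1. The sum of 9 retinal pigment epithelium or melanocyte markers was 298 to 1116 CPM in the ONH and 79.1 to 117 CPM in the ONP at 30 days, and 401 to 1714 CPM in the ONH and 121 to 145 CPM in the ONP at 7 days. All 9 were above 3 counts in every ONH library and 5 to 9 in the ONP libraries, where Mlana and Tyrp1 were near 0. The marker Rlbp1 alone had a 30 day median of 309 CPM in the ONH and 80.1 CPM in the ONP. Medians of the whole sum were 600 and 85.9 CPM. The r of Pros1 with this sum was 0.82 over all libraries and −0.23 within groups. With the oligodendrocyte sum r was −0.73 overall and −0.67 within groups, and with the oligodendrocyte precursor sum −0.85 and −0.70. It was 0.71 and −0.27 for photoreceptor, 0.69 and −0.14 for neuron or axon markers. For fibroblast or meningeal markers it was 0.63 and −0.18, and for mural cell markers 0.62 and 0.09. With the astrocyte sum it was −0.14 overall and 0.50 within groups. The part of the other cell types in the Pros1 difference was not tested. Pros1 was most like Slc12a8 (r = 0.97), the thyroid hormone transporter Slco1c1 (r = 0.96) and Pamr1 (r = 0.96).

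Gas6, the ligand that binds all 3 TAM receptors, was called in no comparison. It was at 148, 265, 182 and 210 CPM in the 7 day ONH columns 1, 3, 5 and 6, at 186, 155, 163 and 152 CPM in the 7 day ONP columns 1, 2, 5 and 6, and at 197 ± 14.6 CPM in the ONH and 170 ± 20.3 CPM in the ONP at 30 days (SD, n = 7 each). The 7 day ONH had the widest spread, and all groups overlapped. At 30 days the ONH was higher in 7 of 7 pairs, by 0.03 to 0.56 on the log2 scale, and the log2FC of 0.21 was not called (SE 0.09, interval 0.02 to 0.41, adjusted p = 0.0763). Without ONP replicate 3, whose Gas6 of 207 CPM was the highest of its group, the adjusted p was 0.0278, and over 11 alternatives it ranged from 0.0357, without mitochondrially encoded genes, to 0.194. Over time the log2FC was −0.05 in the ONH (interval −0.38 to 0.28) and 0.02 in the ONP (interval −0.21 to 0.24). Gas6 was most like Lhfp (r = 0.91), the glycolytic enzyme Aldoa (r = 0.87) and Wdr61 (r = 0.85).

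With Gas6 nearly level and Pros1 lower in the ONP, the balance of the ligands differed between groups. Per kb of exon, the ratio of Gas6 to Pros1 was 0.305 in the ONH at 7 days, 0.393 in the ONH at 30 days, 0.687 in the ONP at 7 days and 1.22 in the ONP at 30 days on average. No ONH library overlapped the ONP at either time, and the lowest ratio in the 30 day ONP (0.868) was above the highest in the 7 day ONP (0.806). On this scale per kb, Gas6 exceeded Pros1 in 5 of 7 libraries of the 30 day ONP, by as little as a ratio of 1.02, and in none of the others. That order depends on the exon lengths used. Without division by length, Pros1 had more counts than Gas6 in every library, with a log2 ratio of Gas6 to Pros1 of at most −0.018. These values are a description, with no test of the ratio.

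Mfge8, the integrin ligand, was similar in the 4 groups. Its mean was 295 ± 65.6 CPM in the ONH at 30 days (SD, n = 7), 322 ± 47.2 CPM in the ONH at 7 days (n = 4), 305 ± 38.3 CPM in the ONP at 30 days (n = 7) and 312 ± 40.7 CPM in the ONP at 7 days (n = 4). All groups overlapped and no comparison was called, with intervals of log2FC within −0.55 to 0.42 in the 4 comparisons of 2 groups. Within groups, Mfge8 had an r of 0.58 with Pros1 and 0.57 with Gas6. The genes most like Mfge8 were Cr1l (r = 0.81), Evc2 (r = 0.79) and Pfkp (r = 0.77).

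As a group the 8 genes did not move in 1 direction. Their median log2FC was −0.23 in the ONH over time, against −0.02 for all genes tested, and −0.16 in the ONP, against −0.01. Between regions it was 0.16 at 7 days, against 0.07, and 0.03 at 30 days, against −0.01. The median size of the change, ignoring its sign, was 0.67 at 7 days between regions, against 0.47 for all genes, and 0.19 at 30 days, against 0.45. The share of members called was 37.5% in the ONP over time, 50% between regions at 7 days and 25% between regions at 30 days, against 17.0%, 13.2% and 41.8% of all genes. The comparisons share libraries, so these values are not independent of each other.

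Other genes of the engulfment pathway were read from 6 lists with 98 genes, of which 97 were in the table and all but Havcr1 were found. In the ONP over time, 1 of 95 tested genes rose and 13 fell, or 14.7% against 17.0% of all genes. The oligodendrocyte, endothelial and mural cell markers that fell with Pros1 belong to this comparison too, and their part in the falls of pathway genes was not tested. Between regions, 10 genes were higher and 10 lower in the ONH at 7 days (21.7% of 92, against 13.2%), and 20 were higher and 26 lower at 30 days (48.9% of 94, against 41.8%). Oligodendrocyte markers were lower in the ONH too, 8 of 8 at 7 days and 7 of 8 at 30 days. Of the retinal pigment epithelium or melanocyte markers, 8 of 9 were higher at each time. The part of these cells in the regional differences given below, such as those of Cd36, Megf11, Edil3, Elmo1, Rac1 and Lamp1, was not tested. edgeR called 0 of 94 in the ONH over time, where 15 had an unadjusted p under 0.05 and DESeq2 called 2, and 0 of 95 in the interaction, where 11 had an unadjusted p under 0.05 and DESeq2 called 2. limma-voom called 0 in both.

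The list of other engulfment receptors also holds the cytoplasmic kinase Ptk2 and the lipid transporter Abca1. Of its 17 genes tested in the ONP over time, 3 fell and none rose (17.6%, against 17.0% of all genes). They were the integrin subunit Itgb1 (log2FC −0.67, adjusted p = 0.00165), Ptk2 (log2FC −0.55, adjusted p = 0.00782) and Lrp1, a receptor for calreticulin-tagged cells (log2FC −0.55, adjusted p = 0.00375). Lrp1 was also higher in the ONH at 30 days, with 274 CPM against 117 CPM (log2FC 1.23, adjusted p = 4.37e-06). The scavenger receptor Cd36 was at 17.1 CPM in the ONH and 1.85 CPM in the ONP at 30 days (log2FC 3.21, adjusted p = 0.00772), and Megf11, the paralogue of Megf10, at 5.44 and 24.5 CPM (log2FC −2.17, adjusted p = 8.39e-06). Both kept their direction at 7 days (Cd36 log2FC 4.52, Megf11 log2FC −1.78, adjusted p = 0.0101 and 0.0282). In all, 3 genes of this list (Cd36, Lrp1 and Abca1) were higher and 2 (Megf11 and Ptk2) lower in the ONH at 30 days. These were 31.2% of 16, against 41.8% of all genes.

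Of 16 other bridging ligands and opsonins, 6 were higher and 5 lower in the ONH at 30 days, and 6 were higher and 1 lower at 7 days. These were 68.8% and 43.8% of the list, against 41.8% and 13.2% of all genes. Thbs1, a ligand that links dying cells to Cd36, was at 8.77 CPM in the ONH and 1.25 CPM in the ONP at 30 days (log2FC 2.80, adjusted p = 0.000433). Edil3, like Mfge8 a bridge from phosphatidylserine to integrins, went the other way with 48.8 and 169 CPM (log2FC −1.79, adjusted p = 0.000132), and at 7 days with 46.6 and 259 CPM (log2FC −2.46, adjusted p = 0.000282). Tulp1, a ligand of Mertk that is also a photoreceptor gene, was at 9.68 CPM in the ONH and 0.171 CPM in the ONP at 30 days, near the floor, so no fold is given. Over time 1 ligand was called (6.25% of 16 in the ONP, against 17.0% of all genes). It was Calr, the calreticulin gene, which fell in the ONP (log2FC −0.63, adjusted p = 0.00261).

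Among 20 genes of engulfment signalling and the cytoskeleton, 3 fell in the ONP over time (15%, against 17.0% of all genes). They included the Rac activator Dock1 (log2FC −0.88, adjusted p = 0.00222) and the dynamin Dnm2 (log2FC −0.76, adjusted p = 0.00825). Between regions at 30 days 3 of the 20 genes were higher and 7 lower in the ONH (50%, against 41.8% of all genes). Elmo1, the partner of Dock1, was at 24.8 CPM in the ONH and 84.1 CPM in the ONP (log2FC −1.76, adjusted p = 6.33e-05), and the GTPase Rac1 at 222 and 516 CPM (log2FC −1.22, adjusted p = 0.00509). At 7 days 4 were lower and none higher (20%, against 13.2% of all genes), with Elmo1 among the lower ones (log2FC −1.88, adjusted p = 0.00816).

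Of 16 genes of phagosome maturation, 2 fell in the ONP over time (12.5%, against 17.0% of all genes). They were the lysosomal protease Ctsl (log2FC −0.62, adjusted p = 0.00881) and Vps18 (log2FC −0.56, adjusted p = 0.0246). At 30 days 3 of the 16 genes were higher and 6 lower in the ONH (56.2%, against 41.8% of all genes). Ctsl was at 872 CPM in the ONH and 403 CPM in the ONP (log2FC 1.11, adjusted p = 5.43e-05), while the lysosomal membrane gene Lamp1 was at 740 and 1715 CPM (log2FC −1.21, adjusted p = 0.00206). Of 11 genes of phosphatidylserine exposure and inhibitory signals, 2 fell in the ONP over time (18.2%, against 17.0% of all genes). Both code for parts of flippases that return the lipid to the inner leaflet. These were Atp11a (log2FC −0.82, adjusted p = 0.0168) and Tmem30a (log2FC −0.35, adjusted p = 0.0258).

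Among 16 genes of TAM shedding, ligand carboxylation and downstream feedback, Pparg was the 1 pathway gene that rose in the ONP over time, from 0.413 to 3.54 CPM (log2FC 2.98, adjusted p = 0.0128). It codes for a nuclear receptor of lipid metabolism. Its 7 day level was not far above the floor (0.0901 to 0.184 CPM), so the size of this rise is uncertain. Adam17, a protease that sheds Mertk and Axl, fell in the ONP (log2FC −0.58, adjusted p = 0.0455) and was lower in the ONH at 30 days (log2FC −0.75, adjusted p = 0.00404). Adam10, a related sheddase, was lower in the ONH at 7 days (log2FC −0.80, adjusted p = 0.0174). The oligodendrocyte sum moved with these regional differences as with that of Tyro3, and its part in them was not tested.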

How the data were processed

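Ribosome-bound mRNA of HA-tagged cells was sequenced from 22 pooled libraries (Smart-Seq HT kit, oligo-dT). The authors aligned reads with STAR 2.6.1d to mm10 and quantified Ensembl transcripts with Salmon 0.14.2, and deposited the expected counts of each gene, rounded and not normalized. A second table deposited by the authors holds log2 values from the variance stabilizing transformation of DESeq2 1.34.0 in R 4.1.0, used here as an alternative. No column belonged to a sample outside these groups (0 columns).

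Counts were filtered with filterByExpr by group, scaled by TMM and compared with the quasi-likelihood test of edgeR 4.0.16 (R 4.3.3) adjusted over the tested genes by Benjamini-Hochberg, fitting only the groups compared, or all 4 for the interaction. The scripts were tested on simulated data. The labels give each library as a separate pool of 4 mice, so each counted as 1 replicate, and no 2 libraries differed by less than counting noise (chi-square per degree of freedom at least 19.4), which checks only for a library deposited more than once. The floor was 3 counts, 0.0901 to 0.184 CPM, and covers counting error only. Log2 CPM for correlations used a prior count of 2. Exon lengths and positions came from GENCODE M21 (GRCm38), promoters from RefSeq (GRCm38.p6), which held 7 of the 8 members.

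The labels number replicates in both regions, and the study's methods state, for all samples, that ONH and ONP came from the same mice. At 30 days libraries of the same number had a correlation of deviations from the group means of 0.0767 to 0.471, and 3 of 7 matched their own number best. The block was therefore used as an alternative. The 7 day column numbers did not match the labels, so no 7 day pairs were formed, although 1, 5 and 6 occur in both regions, and shared mice at 7 days were not modelled.

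The alternatives were DESeq2 1.42.0, limma-voom with quality weights and limma on the deposited log2 values (limma 3.58.1), RLE factors, scaling by total count alone, dropping genes of the mitochondrial genome, a filter of 1 count over all libraries or of 10 counts in each library, a single fit of all 4 groups, the replicate block, and each library left out in turn. Chosen after seeing the data were the fits without replicate 7 at 30 days and without columns 1 and 6 of the 7 day ONH.

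The 8 genes, the pathway lists and the marker lists were chosen with earlier results of these data known. The text names all 8 genes, up to 2 called genes in each direction per pathway list and comparison, the 3 genes with the highest r for each member, and marker genes where their list moves with a member. Some genes that this rule names are not reported here. The 5 comparisons share libraries.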

Additional observations from a re-analysis of the deposited data

Results flagged for a closer look

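Of 32 sets of libraries (8 genes in 4 groups), 2 held a library far from the rest by Dixon's ratio on log2 levels, where chance gives about 1 in 20. Axl was at 474 CPM in ONP replicate 7 at 30 days, against 260 CPM in the next library. This replicate also had the highest microglia or macrophage sum, 3513 CPM. Axl was at 144 CPM in column 5 of the 7 day ONH, against 282 CPM in the next library. The causes were not tested.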

How the results depend on the processing

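Of 424 refits of the log2FC of the 8 genes that kept all libraries or left out only doubted ones, 405 kept direction and call. Members called in the ONP over time fell from 3 to 1 (Tyro3) with library size only and with all 4 groups in a single fit, and ranged from 1 to 3 with single libraries left out. Members called in the interaction were 1 (Megf10) with DESeq2, 1 with the replicate block on the 30 day pairs, and 0 to 1 with single libraries left out. The block changed no other call. Members called were 2 to 3 between regions at 30 days and 3 to 4 at 7 days with single libraries left out. Signs turned only for log2FC that were not called: Axl in the ONH over time without the 7 day ONH columns 1 and 6 (0.13), Axl in the ONP over time with limma-voom (−0.00042) and without replicate 7 (−0.067), Mfge8 in the ONP over time with library size only (0.057), Axl between regions at 30 days with limma-voom (0.027), and Mertk (−0.19) and Axl (−0.11) between regions at 7 days without the 7 day ONH columns 1 and 6. With single libraries left out, sign changes occurred for Gas6 over time in the ONH (−0.17 to 0.10) and ONP (−0.034 to 0.11) and in the interaction (−0.085 to 0.23), Axl in the ONP (−0.067 to 0.20) and between regions at 30 days (−0.22 to 0.083), Mfge8 in the ONP (−0.12 to 0.052) and between regions at 30 (−0.13 to 0.0070) and 7 days (−0.046 to 0.14), and Mertk between regions at 7 days (−0.067 to 0.27). The causes were not tested. Counts over all genes moved by over 1.5 times in the ONH over time (0; DESeq2 446, all groups 292, no filter 2, limma on log2 values 1, without columns 1 and 6 1, single libraries left out 0 to 167), the ONP over time (2638; all groups 1189, single libraries left out 1439 to 3214), regions at 7 days (1940; DESeq2 3203, all groups 3785, without columns 1 and 6 2985, single libraries left out 1102 to 2379) and the interaction (91; DESeq2 409, limma-voom 55, no filter 50, without replicate 7 58, single libraries left out 22 to 318).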
